A study of Canis lupus familiaris with 10 samples.

Results

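The keratins and other genes of epidermal differentiation were described in CCH (canine cutaneous histiocytoma), a benign tumor of the skin. The genes were chosen by name from the table of normalized read counts, without regard to their values. They were every symbol made of KRT and a number, with or without a letter, and 20 further genes of the desmosome, the cornified envelope, desquamation and epidermal regulation. The rule found 72 genes among the 23266 of the table, of which 52 are keratins. Of these 72 symbols, 68 were found in the RefSeq gene table of the dog assembly UU_Cfam_GSD_1.0, where 24 keratins lie on chromosome 27 and 27 on chromosome 9. A further 6 keratins looked for by name (KRT3, KRT6C, KRT12, KRT38, KRT72 and KRT76) were not analysed here.

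Libraries of 3′ transcript ends (QuantSeq) had been sequenced from fixed and paraffin-embedded (FFPE) tumors of 10 dogs. The labels place 5 tumors in group 1 of the histological scheme of Cockerell and Slauson, here called early, and 5 in group 3, here called late, which is labeled as rich in lymphocytes. The dogs were of several breeds, with spontaneous tumors and no labeled treatment, aged 0.5 to 5 years in the early stage (age given for 4 of 5) and 1.5 to 9 years in the late stage. According to the study's methods, tissue next to the tumor was removed before RNA extraction, so that epidermis and hair follicles entered a library only as far as the section still held them. The libraries held 2973125 to 4439709 reads assigned to genes, and 3 reads, taken as the limit that a count of 0 allows, were worth 2.36 to 3.22 on the scale used below. The share of long RNA fragments (DV200) was 68.5% ± 2.46 in early and 73.2% ± 2.09 in late samples (SD, n = 5 each). RNA extraction batches and index sets each held tumors of only 1 stage, and a batch effect and an effect of the stage cannot be told apart here. Markers of Langerhans and dendritic cells were read in all libraries, with a summed level of 1303 to 3444 in early and 941 to 1553 in late CCH.

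Keratins are the intermediate filament proteins of epithelial cells. A filament is built from pairs of a type I and a type II keratin, and the pair changes with the state of the cell. Basal cells of the epidermis use KRT5 with KRT14, the differentiating layers above them use KRT1 with KRT10, and wounded or rapidly growing epidermis turns on KRT6, KRT16 and KRT17. Desmosomes tie the filaments of neighboring cells together, and in the outermost layer involucrin, loricrin and filaggrin are built into the cornified envelope or its filament matrix. The hair shaft and its root sheaths use keratins of their own. CCH arises from cells of the Langerhans cell lineage, which live among the keratinocytes of the epidermis but do not make these epidermal keratins.

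Levels are given as normalized read counts, that is, reads divided by a size factor per library. Since QuantSeq 3′ yields 1 fragment for each transcript, the read number does not grow with transcript length. The numbers 1 to 5 only name the libraries of a stage. A gene was tested where its normalized read count was at least 10 in at least 5 libraries, which held for 36 of the 72 genes. Differences are log2 fold changes (log2FC) of value + 1, as late minus early, with their standard error (SE). Of the 36 genes not tested, KRT20 and KRT24 were at 0 in every library, which allows up to 3 reads in each.

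The first comparison asked whether the epidermal genes differed between late and early CCH. No gene of the 36 reached a Benjamini-Yekutieli (BY) adjusted p of at most 0.05 with a log2FC of at least 1 in size in limma, against 269 of the 12397 genes tested in all (2.17%). With edgeR and DESeq2 the number of these genes called was 0 as well. Most of the 36 genes nevertheless had a log2FC below 0, namely 31 of 36. They share high and low libraries, so that this count is not one of independent genes. It was 21 of 33 without early library 4 and 23 of 36 without late library 3. With a weight for each library it was 24 of 36. It was 31 of 36 without early library 5 and 29 of 32 without late library 2. The median log2FC of the 36 genes was -0.73, where the median of all genes tested was -0.004 and 50.2% of all genes lay below 0. A log2FC of at least 1 in size was reached by 15 of the 36, compared with 15.9% of all genes. Of these 15, 13 were lower in late CCH, where 6.58% of all genes lay that low, and 2 were higher, where 9.27% of all genes lay that high. The 15 genes became 7 without early library 1, 6 without early library 4, 5 without late library 1, 6 without late library 3 and 7 with a weight for each library. They became 22 without early library 5 and 21 without late library 2. The median log2FC moved likewise, to -0.40 without early library 1, -0.30 without early library 4, -0.42 without late library 1, -0.31 without late library 3 and -0.32 with library weights, and to -1.25 without early library 5 and -1.13 without late library 2.

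Without regard to multiple testing, only TP63 and KRT19 had a p of at most 0.05 in limma, that is 2 of 36 genes (5.56%), compared with 30.9% of all genes tested. That number was 4 with edgeR and 3 with DESeq2, and it rose to 6 without early library 5, to 7 without late library 2 and to 4 without late library 5. The early and late values did not overlap for 1 of the 36 genes, TP63, compared with 12% of all genes tested. The plot of the differences between stages shows these genes by role, with an SE that exceeds the change for most of the keratins.

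**Figure D1:**
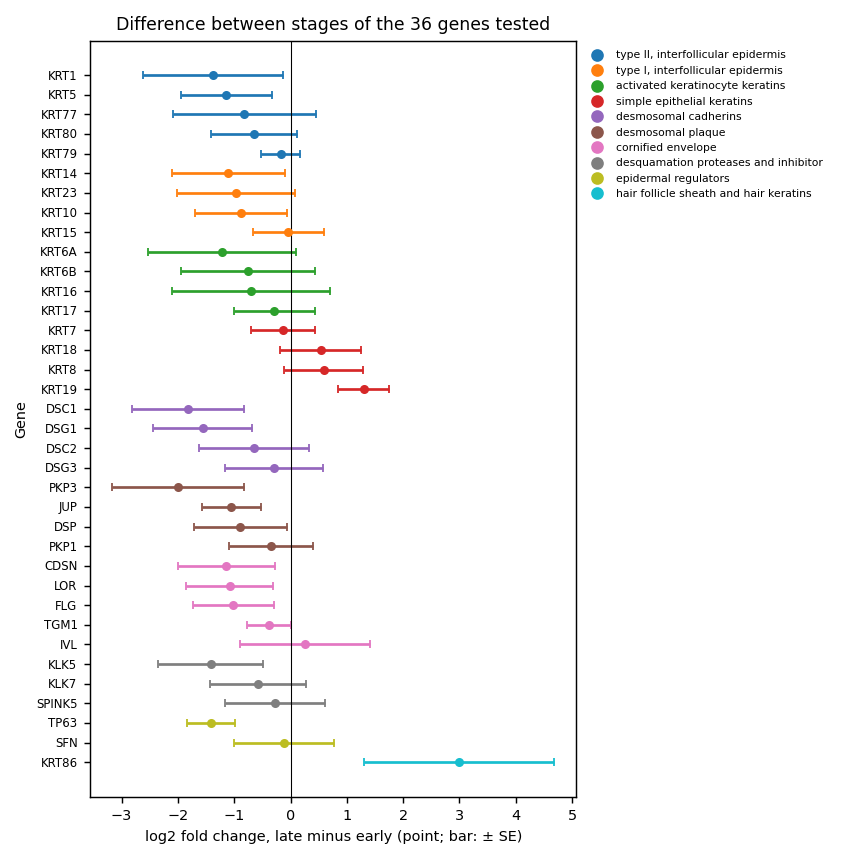
The log2 fold change (late minus early, of the normalized read count + 1) of the 36 genes tested, as a point with a bar of ± SE, colored by the role of the gene. Most points lie left of 0, and KRT86, at 2.99, has the highest value and the longest bar.

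The keratin pairs of the basal and the differentiating layers had the highest mean levels of the 72 genes. KRT5, the type II keratin of basal cells, had normalized read counts of 3912, 1397, 631, 2613 and 223 in early libraries 1 to 5. In late libraries 1 to 5 the KRT5 values were 258, 1163, 164, 406 and 1949. Early libraries 1 and 4 held the highest values, followed by late library 5, early library 2 and late library 2, and the stages overlapped over most of their range. The log2FC of KRT5 was -1.14 ± 0.80 (SE, unadjusted p = 0.18, BY-adjusted p = 1, limma). KRT14, its type I partner, had early values of 3896, 1529, 465, 3854 and 151 and late values of 301, 1501, 94.9, 320.1 and 2541. It followed KRT5 from library to library, with a log2FC of -1.10 ± 1.00. KRT15, another basal keratin that is also made in the bulge of the hair follicle, was lower by far, with 12.9 to 128 in early and 14.5 to 72.4 in late CCH and a log2FC of -0.04 ± 0.63.

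The keratins of the differentiating layers spread more widely. KRT1 had values of 2447, 164, 462, 4154 and 114 in early libraries 1 to 5 and of 23.9, 2133, 63.0, 342 and 638 in late libraries 1 to 5. KRT10, its partner, had values of 3110.2, 326, 1218, 4277 and 250.1 in early and of 258, 2545, 262, 556 and 655 in late CCH. Early libraries 1 and 4 and late library 2 stood above all others for both genes. The log2FC was -1.38 ± 1.24 for KRT1 and -0.88 ± 0.82 for KRT10, each with an SE nearly as large as the change. KRT77, a keratin related to KRT1, was at 381 in early library 3 and 203 in early library 4 and at most 47.6 in each other library. It was at 0 in early library 2, where KRT5 reached 1397. KRT2, a keratin of the uppermost living layers, was high in a single library, with 222 in early library 4 and at most 13.6 elsewhere, and it was not tested. KRT79 varied least among the type II keratins of the epidermis that were tested, from 54.7 to 87.4 in early and from 33.8 to 124 in late CCH, with a log2FC of -0.18 ± 0.34. KRT23 and KRT80 were tested as well and stayed below 50 in every library. KRT4, KRT9, KRT13 and KRT78 were not tested and stayed below 22, with 6 to 9 of the 10 libraries at 0.

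The keratins of activated keratinocytes were high in 3 early libraries and 2 late ones. Whether keratinocytes were activated in these tumors was not tested. KRT6A had values of 2003, 1459, 34.4, 2534 and 82.7 in early libraries 1 to 5 and of 66.6, 803, 23.2, 278 and 863 in late libraries 1 to 5. KRT16, a type I keratin made together with KRT6, had early values of 733, 465, 9.05, 1084 and 20.4 and late values of 33.8, 565, 9.68, 92.0 and 359.9. Early library 3 and late library 3 held the lowest values of both, so that each stage held both high and low tumors. The log2FC was -1.22 ± 1.31 for KRT6A, -0.75 ± 1.19 for KRT6B, -0.70 ± 1.41 for KRT16 and -0.28 ± 0.72 for KRT17. KRT6A and KRT6B are near-identical copies. According to the study's methods, a read that fits both is split between them, and their single levels are therefore uncertain.

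**Figure D2:**
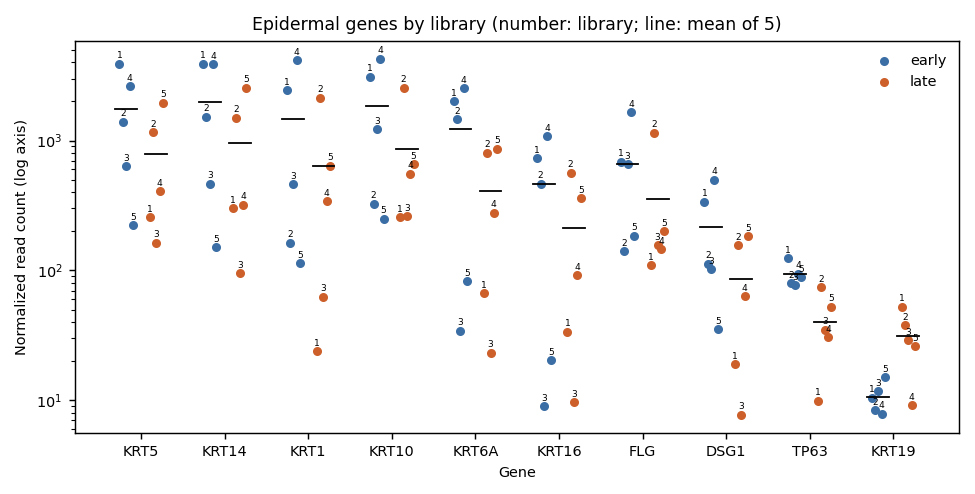
Normalized read counts (log axis) of 10 genes in the 5 early (blue) and 5 late (orange) libraries, with the library number at each point and a line at the mean of 5. The stages overlap for each gene except TP63, whose late values of 9.94 to 74.2 lie below the early values of 76.9 to 125.

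The 3 lowest log2FC values of the 36 genes belonged to desmosomal genes, but none passed the test. Among the cadherins, which bridge neighboring cells, DSG1 had values of 339, 113, 102, 499 and 35.4 in early libraries 1 to 5. In late libraries 1 to 5 the DSG1 values were 18.9, 156, 7.75, 63.4 and 183, which overlapped the early range. The log2FC was -1.56 ± 0.88 for DSG1 (unadjusted p = 0.0999, BY-adjusted p = 1, limma) and -1.82 ± 0.99 for DSC1 (unadjusted p = 0.0898), both of which mark differentiating layers. For DSG3, a cadherin of the lower layers, it was -0.30 ± 0.87, and for the more widely expressed DSC2 it was -0.65 ± 0.97. Of the plaque proteins, which link cadherins to keratin filaments, PKP3 had the lowest log2FC of all 36 genes at -2.0 ± 1.17 (unadjusted p = 0.111 in limma). PKP3 was at 0 in late libraries 1, 3 and 4 and at 47.6, 12.1, 2.71, 41.7 and 3.22 in early libraries 1 to 5. JUP, which encodes plakoglobin, did not pass the test, with a log2FC of -1.05 ± 0.52 (unadjusted p = 0.0653 in limma), with a mean of 254 ± 147 in the early and 140 ± 111 in the late libraries (SD, n = 5 each). The log2FC was -0.89 ± 0.83 for DSP, which encodes desmoplakin, and -0.35 ± 0.75 for PKP1. DSC3 was not tested and had values of 0.994 to 29.5.

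Of 5 tested genes of the cornified envelope, 4 had a log2FC below 0 and 1, IVL, above it. FLG, which encodes the filament-bundling protein filaggrin, had values of 687, 141, 660, 1652 and 186 in early libraries 1 to 5. Its late values were 109, 1145, 157, 146 and 200.4, so that late library 2 alone lay far above the others of its stage. LOR, which encodes loricrin, ranged from 73.0 to 896 in early and from 44.6 to 582 in late CCH. The log2FC was -1.01 ± 0.72 for FLG, -1.08 ± 0.77 for LOR and -1.14 ± 0.86 for CDSN, which encodes the adhesive protein of corneodesmosomes. IVL, which encodes the envelope precursor involucrin, had a log2FC of 0.26 ± 1.16, with early values of 263, 96.8, 3.62, 458 and 31.1 and late values of 44.7, 386, 15.5, 63.4 and 227. In early library 3, IVL was at 3.62 beside 507 for LOR and 660 for FLG. With edgeR and DESeq2 the log2FC of IVL lay below 0. TGM1, which encodes the transglutaminase that links envelope proteins, varied little, with 26.5 ± 7.95 in early and 20.6 ± 8.34 in late CCH (SD, n = 5 each). TGM3, the other transglutaminase, reached 22.8 in early library 4 and was not tested.

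The genes of desquamation, the shedding of the outermost cells, did not separate the stages. KLK5 and KLK7, proteases that cut corneodesmosomes, had a log2FC of -1.42 ± 0.94 and -0.58 ± 0.85. SPINK5, which encodes their inhibitor, was highest in late library 2 with 641, while the other late libraries ranged from 11.6 to 159 and the early ones from 41.9 to 243. Its log2FC was -0.28 ± 0.88 in limma and lay above 0 with edgeR and DESeq2. SFN, which encodes the 14-3-3 protein stratifin of keratinocytes, ranged from 41.9 to 824 in early and from 45.5 to 592 in late CCH, with a log2FC of -0.11 ± 0.89.

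TP63 differed from the other genes tested in that its early and late values did not overlap. This transcription factor is needed to form and maintain the stratified epidermis and is made mostly in its basal cells. Its values were 125, 80.0, 76.9, 94.5 and 89.1 in early libraries 1 to 5 and 9.94, 74.2, 34.9, 30.7 and 52.5 in late libraries 1 to 5. All late values lay below all early ones. The mean was 93.0 ± 19.0 in early and 40.4 ± 24.2 in late CCH (SD, n = 5 each), with a log2FC of -1.42 ± 0.43 (SE) and an unadjusted p of 0.0058 in limma. The BY-adjusted p was 0.415, and TP63 did not pass the test. With Benjamini-Hochberg (BH) adjustment in limma it was 0.0415, and TP63 was the only gene of the 36 called, where 9.04% of all genes were. Over all alternatives the log2FC of TP63 ranged from -1.70 to -1.003 and its adjusted p from 0.0415 to 0.938, and its value nearest 0 was reached without late library 1. Among the early libraries, those with the lowest KRT5, libraries 5 and 3, held 89.1 and 76.9 of TP63. Among the late libraries, TP63 was highest in libraries 2 and 5, which also had the highest KRT5, at 1163 and 1949. The lowest late value of TP63 was in library 1, with KRT5 at 258, whereas KRT5 was lowest in library 3, at 164.

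The keratins of simple epithelia, which line glands and ducts in the skin, were low in both stages. KRT19 had values of 10.5, 8.37, 11.8, 7.88 and 15.0 in early libraries 1 to 5 and of 52.7, 38.1, 29.1, 9.20 and 26.2 in late libraries 1 to 5. The late libraries lay above the early ones except for late library 4. The mean was 10.7 ± 2.89 in early and 31.0 ± 16 in late CCH (SD, n = 5 each), with a log2FC of 1.30 ± 0.45 and an unadjusted p of 0.014 in limma. KRT19 did not pass the test either, with a BY-adjusted p of 0.714 in limma. Over the alternatives the lowest BY-adjusted p of KRT19 was 0.112, with DESeq2, and its BH-adjusted p in limma was 0.0714. Its usual partner KRT8 had a log2FC of 0.59 ± 0.70, KRT18 of 0.53 ± 0.73 and KRT7 of -0.13 ± 0.56. The value of KRT18 lay below 0 with edgeR and DESeq2.

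**Figure D3:**
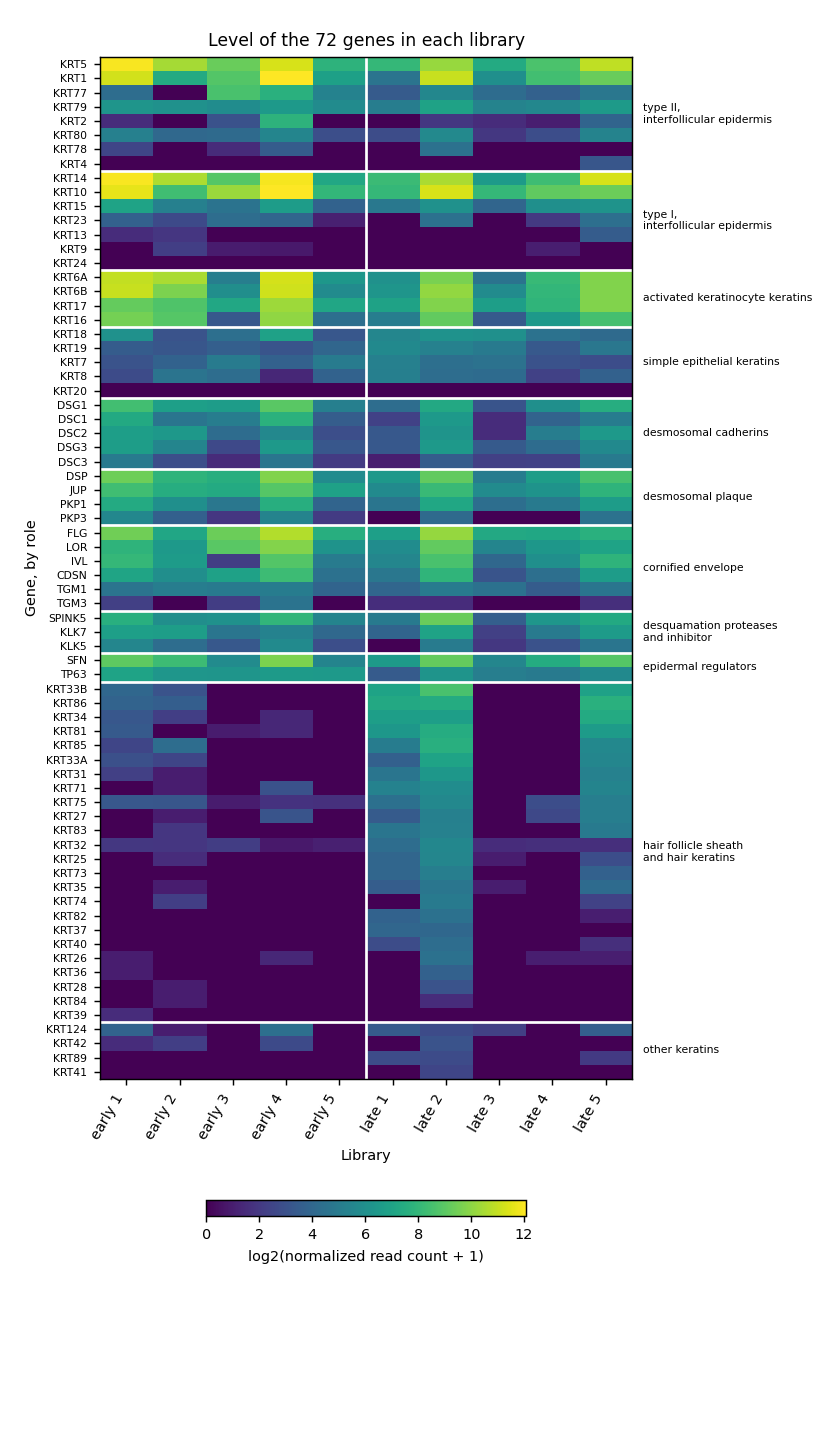
Level of the 72 genes (rows, by role) in the 10 libraries (columns, with early left of the white line), as log2(normalized read count + 1). Early libraries 1 and 4 and late library 2 are bright through the epidermal rows, whereas many of the hair rows are bright in late libraries 1, 2 and 5.

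The spread between tumors of the same stage was the main feature of the epidermal genes. Summed over all 72 genes, the normalized read count was 23573, 8602, 5729, 30029 and 1998 in early libraries 1 to 5. In late libraries 1 to 5 the sums were 2746, 18190, 1479, 3657 and 12642. The highest sum was thus 20.3 times the lowest, and the stages overlapped, with 13986 ± 12147 in early and 7743 ± 7315 in late CCH (SD, n = 5 each). These sums were 0.419% ± 0.356 of all normalized reads in early and 0.25% ± 0.238 in late CCH. In bulk tissue, fewer cells of a type and less RNA per cell cannot be told apart.

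The same libraries were high for gene after gene. The 31 tested genes outside the simple epithelial and hair keratins had their highest value in early library 4 for 17 genes, in early library 1 for 7 and in late library 2 for 5. Of all 12397 genes tested, 6.74% to 13% had their highest value in any given library. The lowest value was in late library 3 for 14 of the 31 genes and in late library 1 for 8. The ratio of the highest to the lowest value plus 1 had a median of 25.6 over the 31 genes and of 3.07 over all genes tested. It was at least 10 for 27 of the 31 genes, compared with 14.1% of all genes tested. These counts describe genes that share libraries and are not independent of each other.

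Partners of a filament differed less in their ratio than in their single levels. KRT5 and KRT14 had a ratio of 0.678 to 1.72 in the 10 libraries, whereas KRT5 alone ranged over 23.9-fold. KRT6A was 1.42 to 4.05 times KRT16, whereas KRT6A alone ranged over 109-fold. The same held for genes that are not partners, with FLG at 0.221 to 0.742 times KRT10 and LOR at 0.284 to 0.767 times FLG. FLG alone ranged over 15.1-fold and LOR over 20.1-fold. KRT1 was 0.24 to 0.974 times KRT10 in all libraries except late library 1, where the ratio was 0.0927, with 23.9 for KRT1 and 258 for KRT10.

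Of the ratios of KRT6A, KRT10 and KRT5 to one another, those of KRT6A spread most widely. The highest value was 159 times the lowest for KRT6A to KRT10 and 19.2 times for KRT6A to KRT5. For KRT10 to KRT5 it was 9.39 times, and for the partners KRT1 and KRT10, with late library 1, 10.5 times. KRT10 was 0.233 times KRT5 in early library 2 and 0.336 times in late library 5, but 2.19 times KRT5 in late library 2. KRT6A was 4.48 times KRT10 in early library 2 and 0.0282 times KRT10 in early library 3, both tumors of the same stage. The genes of inflamed epidermis were ordered alike in these 2 tumors, since S100A9, which encodes a subunit of the antimicrobial protein calprotectin, was at 1883 in early library 2 and 100.4 in early library 3. S100A12, a related gene, was at 3450.0 and 39.8. Neutrophils and monocytes make these genes too, and their part in these levels was not tested.

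**Figure D4:**
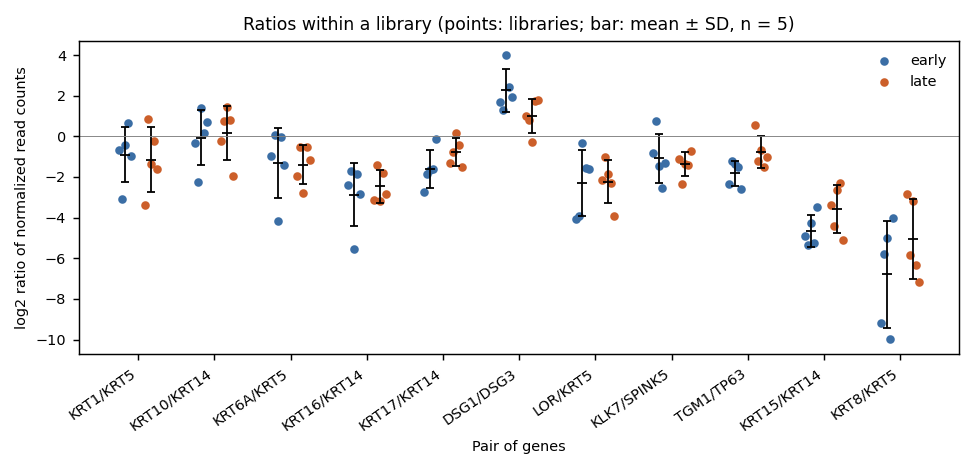
The log2 ratio of 2 genes within each library for 11 pairs, for the 5 early (blue) and 5 late (orange) libraries, with the mean and a bar of ± SD (n = 5). The stages overlap for all pairs, and TGM1/TP63 has 4 late libraries above the early ones.

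The second comparison asked whether the balance of layers and states differed between the stages, by ratios formed within a library. Such a ratio cancels the amount of epidermis only where both genes come from the epidermis alone, which was not tested. KRT8 and KRT15 are examples of genes that are also made in glands or hair follicles. The other genes of the ratios were not checked for this. Of 13 ratios, 11 could be formed from tested genes, and the stages were set against each other by exact permutation of the libraries, two-sided, where the smallest possible p is 0.00794. None passed after BH adjustment over the 11 ratios. The log2 ratio of KRT1 to KRT5 was -0.90 ± 1.37 in early and -1.15 ± 1.59 in late CCH (SD, n = 5 each, exact p = 0.77, BH-adjusted p = 0.941). That of KRT6A to KRT5 was -1.31 ± 1.71 in early and -1.39 ± 0.96 in late libraries (exact p = 0.929). For LOR to KRT5 the difference was 0.06 (exact p = 0.952) and for KRT10 to KRT14 it was 0.23 (exact p = 0.754).

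The ratios with the lowest p-values involved TP63 and the desmosomal cadherins. The log2 ratio of TGM1 to TP63 was -1.81 ± 0.61 in early and -0.78 ± 0.79 in late CCH, higher in late by 1.04 (exact p = 0.0317, BH-adjusted p = 0.306). In 4 of 5 late libraries it lay above all early ones. The log2 ratio of DSG1 to DSG3 was 2.27 ± 1.05 in early and 1.01 ± 0.84 in late libraries, which differed by -1.26 (exact p = 0.0556, BH-adjusted p = 0.306), with 3 of 5 late libraries below all early ones. The remaining differences were 0.40 for KRT16 to KRT14 (exact p = 0.722), 0.82 for KRT17 to KRT14 (exact p = 0.143), 1.06 for KRT15 to KRT14 (exact p = 0.135), 1.73 for KRT8 to KRT5 (exact p = 0.294) and -0.30 for KLK7 to SPINK5 (exact p = 0.706).

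The keratins of the hair shaft and its root sheaths showed a pattern of their own. These 24 genes summed to 77.1, 70.7, 5.43, 22.8 and 3.22 in early libraries 1 to 5. In late libraries 1 to 5 they summed to 732, 1711, 3.87, 14.3 and 905. Late libraries 1, 2 and 5 thus stood about an order of magnitude above the highest early library, while late libraries 3 and 4 lay within the early range. The highest value was in late library 2 for 21 of the 24 genes, in late library 5 for 2 and in early library 1 for 1. Late library 1 was among the lowest for the epidermal genes, with 258 for KRT5 and 23.9 for KRT1, and yet held 732 of hair and sheath keratins. Early library 4, with the highest sum over all 72 genes, held 22.8.

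Several hard keratins of the shaft and soft keratins of the sheath were high in late libraries 1, 2 and 5, but not all were. Of the 24 genes, 6 were at 0 in late library 1, 1 in late library 2 and 5 in late library 5. KRT74, for one, was at 0, 30.4 and 4.20 in these libraries. Among the shaft keratins, KRT33B had values of 127, 389 and 119 in late libraries 1, 2 and 5, of 15.2 and 7.44 in early libraries 1 and 2, and 0 in each of the other 5. KRT34 was at 108, 109 and 167 in late libraries 1, 2 and 5 and at most 8.57 in any other library. KRT85, an early keratin of the forming shaft, was at 32.8, 191 and 49.3 in these 3 libraries and at 18.6 in early library 2. KRT71, a keratin of the inner root sheath, was at 39.8, 58.0 and 42.0 in the same 3 and at 7.09 in early library 4. KRT75, of the companion layer between the sheaths, was the most widely read after KRT32, at 0 only in late library 3 and with a highest value of 48.5 in late library 2. Reads of KRT33A and KRT33B, and of KRT81, KRT83 and KRT86, can be shared between near-identical copies, so that their single levels are uncertain.

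**Figure D5:**
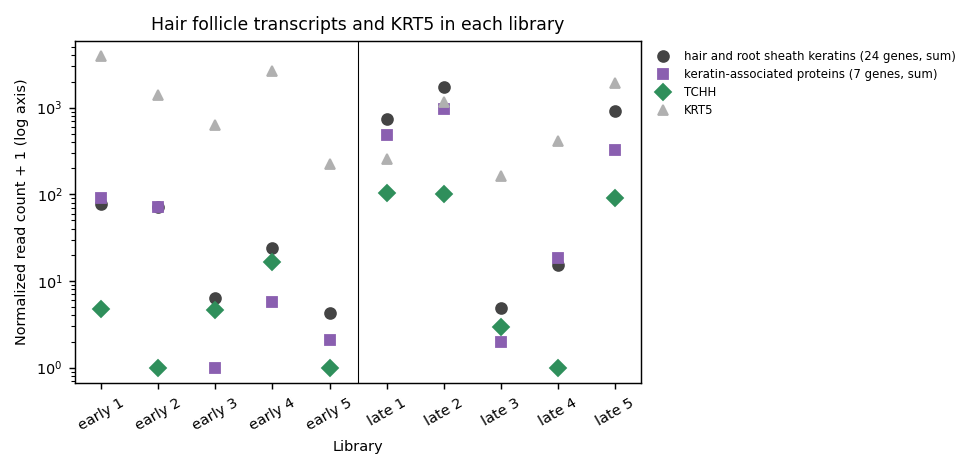
Normalized read count plus 1 (log axis) in each library of the hair and root sheath keratins (24 genes, summed), of 7 keratin-associated protein genes (summed), of TCHH and of KRT5. The 3 hair measures are high together in late libraries 1, 2 and 5, and KRT5 does not follow them in late library 1.

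Only KRT86 of the 24 hair and sheath keratins passed the filter, through its high libraries, and its log2FC of 2.99 ± 1.69 (SE, unadjusted p = 0.102 in limma) did not pass the test. KRT86 had values of 156, 172 and 200.4 in late libraries 1, 2 and 5, of 13.3 and 11.2 in early libraries 1 and 2, and 0 elsewhere. Without a filter on low values, 23 of the 24 had a log2FC above 0 and 8 a p of at most 0.05, where 11.3% of all genes were higher at that p. None of the 24 was called, and the lowest BY-adjusted p was 0.936. These 8 were KRT25, KRT27, KRT31, KRT35, KRT40, KRT73, KRT82 and KRT83. With 20 or more of the 24 genes at 0 in early libraries 3 and 5 and late libraries 3 and 4, the difference between the stages rested on late libraries 1, 2 and 5.

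Some other hair genes were high in the same libraries. TCHH, which encodes the root sheath protein trichohyalin, was at 103, 99.9 and 90.2 in late libraries 1, 2 and 5 and at most 15.8 elsewhere. The 7 genes of keratin-associated proteins, which form the matrix of the hair shaft, summed to 480, 960 and 322 in these 3 libraries and to at most 90.4 elsewhere. TCHH and these 7 genes were chosen after their values were seen. The list of 18 hair follicle and adnexal gland genes, which holds TCHH, summed to 437 to 719 in early and 466 to 829 in late CCH, and most of that sum was SCD, a lipid gene that many tissues express. Without SCD, a choice made after the values were seen, the list summed to 275, 381 and 389 in late libraries 1, 2 and 5 and to at most 213 elsewhere. Without SCD and TCHH it was 172, 281 and 299 in these 3, of which late library 1 lay within the early range of 113 to 213. Not all genes of the list were high in these 3. HOXC13 and LHX2 were at 0.994 in late library 1, below all early values, and LGR5 was highest in early library 2 with 28.8. Of the 7 tested genes of the list, none was called in limma, edgeR or DESeq2. In limma 1 had a p of at most 0.05, MSX2, with a log2FC of 1.28 ± 0.45 (BY-adjusted p = 0.721). SOX9 had a log2FC of 0.15 ± 0.66, and the sebaceous gland genes AWAT1 and ELOVL3 of -1.23 ± 0.98 and -0.40 ± 1.07. The 4 other keratins, KRT41, KRT42, KRT89 and KRT124, stayed below 21 and were not tested.

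Further genes of the epidermis, which the naming rule did not hold, also had lower values in late CCH in most cases. Of 40 such genes 35 were tested, and 30 had a log2FC below 0, with a median of -0.67. These genes share high and low libraries too and are not independent of each other. None was called in limma, edgeR or DESeq2, and 1 had a p of at most 0.05 in limma, KLF4, a transcription factor of barrier formation, with a log2FC of -1.0 ± 0.42 (BY-adjusted p = 1). The lowest log2FC was -1.52 ± 0.71 for KLF5, a transcription factor of proliferating basal cells, and -1.51 ± 0.83 for PERP, a desmosomal membrane protein. The highest was 0.57 ± 0.57 for the tight junction gene CLDN4 and 0.48 ± 0.59 for the envelope gene EVPL. The sum of the 40 genes ranged from 960 to 6978 in early and from 862 to 6391 in late CCH.

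The genes that anchor basal cells to the basement membrane did not move as a group. Of 10 tested, none was called in limma or edgeR and 1 was called lower in DESeq2. In limma 2 were higher and 1 was lower at a p of at most 0.05. COL17A1, a hemidesmosomal collagen of basal keratinocytes, had a log2FC of -1.52 ± 0.99, and its values of 3.98 to 144 in late and 11.8 to 285 in early CCH overlapped. PLEC, a linker protein made in many cell types, had a log2FC of -1.28 ± 0.26 (BY-adjusted p = 0.0822). The integrin gene ITGA6 had a log2FC of 0.92 ± 0.34 (BY-adjusted p = 0.834) and COL7A1, the collagen of anchoring fibrils, of 0.64 ± 0.39. Of 6 tested genes of activated keratinocytes none was called in limma, edgeR or DESeq2, with a log2FC of -1.26 ± 1.21 for IL36RN, -1.25 ± 1.08 for S100A9, -0.75 ± 1.39 for S100A12 and 0.94 ± 0.85 for CXCL8. None had an unadjusted p of at most 0.05 in limma or edgeR, and 1 had in DESeq2.

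Of the markers of other cell types, those of T cells and some of Langerhans and dendritic cells differed between the stages. All 12 T cell genes were higher in late CCH at a p of at most 0.05 in limma, as were 1938 of all 12397 genes tested. The median log2FC of the 12 was 3.40, and 1 was called, CD6, where DESeq2 called 7. The late group is labeled as rich in lymphocytes, so higher T cell genes follow from the grouping and are not an independent result. The log2FC was highest for CD28 (4.00 ± 0.82) and CD6 (3.85 ± 0.58) and lowest for CD8A (2.29 ± 0.70) and CD2 (2.85 ± 0.59). Their sum ranged from 83.8 to 2576 in early and from 3948 to 6677 in late CCH, without overlap. Of 8 tested genes of Langerhans and dendritic cells 2 were called lower, FLT3 and FCER1A, with a median log2FC of -1.45 over the 8, where DESeq2 called 4 lower and 1 higher and edgeR 1 lower. The lowest log2FC in this list were -3.80 ± 0.92 for CD1A8 (BY-adjusted p = 0.171, limma) and -2.89 ± 0.50 for FLT3, and the highest were 2.38 ± 0.63 for CCR7 (BY-adjusted p = 0.252, limma) and -0.13 ± 0.39 for ITGAX. Of 10 fibroblast genes none was called in limma, edgeR or DESeq2, with 1 at a p of at most 0.05 and a median log2FC of -0.24, from -1.20 ± 0.38 for POSTN and -0.47 ± 0.42 for LUM to 0.47 ± 0.68 for COL5A1 and 0.70 ± 0.42 for FAP. Of 2 melanocyte genes tested none was called by these tools. MITF, with a log2FC of 0.98 ± 0.34, had a p of at most 0.05 in limma, whereas KIT had a log2FC of 0.70 ± 0.81. PMEL, MLANA, TYR, TYRP1, DCT and SOX10 were not tested and were at most 9.44 in any library. The part of these cell types, and of the difference in DV200, in the epidermal log2FC values below 0 was not tested.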

How the data were processed

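RNA of 10 FFPE tumors was sequenced with QuantSeq 3′. According to the study's methods, the authors trimmed reads with Cutadapt, aligned them with STAR to CanFam3.1, counted them per gene with featureCounts and split multi-mapped reads evenly. Tool versions are not given in the sources used here. The deposited values are a normalized signal, read counts that the authors divided by 1 size factor per library. All 166096 values above 0 (100%) were whole multiples of the smallest value of their library, taken as 1 read (tolerance 0.01 reads). Reads were recovered in this way for edgeR and DESeq2. An even split of multi-mapped reads would leave fractions, and whether the deposited counts had been rounded was not tested. Of 21 value columns, 11 match no sample and were not used. Column names give the stage but not the sample.

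The 12397 genes that reached a value of 10 in 5 or more libraries were tested with limma 3.58.1 (R 4.3.3, mean-variance trend, log2(value + 1), pseudocount 1, all 10 libraries, no covariates). Calls required BY-adjusted p-values up to 0.05 and a size of log2FC from 1 upwards. Alternatives were edgeR 4.0.16 (quasi-likelihood), DESeq2 1.42.0 (Wald), TMM and column-total scaling, other pseudocounts and filters, BH adjustment, library weights and leaving out each library. Only the limma fit was tried on simulated data. Ratios were compared with exact two-sided permutation tests. The dogs differ between the stages. The p-values of single genes set the difference between stages against the spread between libraries of the same stage. Those of the ratios set it against the differences from all assignments of the libraries to stages.

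Members and lists were chosen with earlier results of these data known. Named were, in each role class, the 3 genes with the highest mean and the tested genes with the highest and lowest log2FC, genes of the ratios, and in each further list the 2 highest and 2 lowest log2FC and any called; other genes were named to account for all members, or after their values were seen. Ties at 0 for the lowest value were counted for the first library. No reference sequence was used.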

Additional observations from a re-analysis of the deposited data

Results flagged for a closer look

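FLG in late library 2 stood apart from its stage. With a normalized read count of 1145 beside 109 to 200.4 in the other 4 late libraries, its gap to the nearest of them was 0.743 of the range of the stage on the log2 scale, above the critical value of 0.71 for 5 samples. Of 118 groups of 5 libraries looked at, 1 stood out in this way, where chance gives about 5.9.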

How the results depend on the processing

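Of the 24 hair and sheath keratins 23 were not tested, since fewer than 5 libraries reached a value of 10. The 5 tumors per stage differed over 10-fold in most epidermal genes. Extraction batch, index set and DV200 differed with the stage, and skin site was not linked to libraries. No paired analysis was possible because different dogs make up the 2 stages, and the column names match no replicate number of the labels. The study lists samples under IDs like the column names, and this link was not used here.

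The number of calls among all genes was 269. It was 1121 with BH adjustment, 177 with edgeR, 810 with DESeq2, 418 with a weight per library and between 49 and 260 when 1 library was left out. The cause was not tested, other than that BH is less strict by construction. Column-total scaling shifted the median log2FC of all genes by 0.088 and gave 169 calls higher and 95 lower, against 131 and 138. Members called lower numbered 0 except with BH adjustment, where TP63 made 1, and members called higher numbered 0 throughout. With a weight per library, 12 of the 36 genes had a log2FC above 0 and the median was -0.32. The direction turned with this weighting for DSG3 (0.12), KRT15 (0.20), KRT16 (0.10), KRT17 (0.11), PKP1 (0.011), SFN (0.38) and SPINK5 (0.18), with column-total scaling for KRT15 (0.045), with edgeR for IVL (-0.20), KRT18 (-0.0079) and SPINK5 (0.61), and with DESeq2 for IVL (-0.21), KRT18 (-0.022) and SPINK5 (0.60). With 1 library left out, the log2FC ranged from -1.22 to 0.10 for DSC2, -0.87 to 0.15 for DSG3, -0.73 to 0.93 for IVL, -1.09 to 0.086 for KLK7, -0.46 to 0.34 for KRT15, -1.68 to 0.082 for KRT16, -0.68 to 0.16 for KRT17, -0.44 to 0.16 for KRT7, -2.11 to 0.029 for KRT77, -0.43 to 0.026 for KRT79, -0.85 to 0.068 for PKP1, -0.67 to 0.39 for SFN and -1.03 to 0.39 for SPINK5. The log2 ratios ranged from -0.80 to 0.26 for KRT6A/KRT5, -0.39 to 0.55 for LOR/KRT5, -0.32 to 0.76 for KRT10/KRT14, -0.67 to 0.16 for KLK7/SPINK5, -0.26 to 0.69 for KRT16/KRT14 and -0.79 to 0.31 for KRT1/KRT5. In these genes and ratios the turns came at values that had not passed the test, and the cause was not tested. The remaining values of single genes (639) and ratios (117) kept their direction and their side of the threshold, apart from TP63 with BH adjustment. The summed level had no test, and its 13 alternatives lay within the pooled SD of the stages from the main value (log2 scale).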

Other observations

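Within the skeletal muscle list, which was read as a marker of tissue below the skin, 1 of 10 genes could be tested, DES, with a log2FC of -0.29 ± 0.72. The sum of the list was 12.6 to 119 in early and 12.6 to 54.2 in late CCH.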
